A study of Homo sapiens with 6 samples.

Results

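The DNA methylation machinery of NTERA2/D1 cells was examined as 10 genes, of which DNMT1, DNMT3A, DNMT3B and DNMT3L are writers or their cofactor, TET1, TET2 and TET3 are erasers, and UHRF1, MBD2 and MBD3 are readers. The members were all probe sets whose platform annotation names 1 of these genes, which gave 22 of the 54613 probe sets tested and 10 of 19775 genes. No probe set named a member together with another gene. NTERA2/D1 is an established human testicular teratocarcinoma line with the features of pluripotent embryonal carcinoma cells. RNA was measured on 3' expression arrays, 3 from cells transfected with siRNA against VAMP7 (knockdown, labelled Vamp7 siRNA) and 3 from cells transfected with a nonspecific scrambled siRNA. In both groups the cells were grown without phenol red, transfected 24 h after plating and harvested after 72 h of transfection. The question behind the comparison is which pathways differ when VAMP7, a vesicle SNARE, is lowered. Replicate numbers 1 to 3 were taken from the titles; each of the 3 knockdown descriptions instead says replicate 1. The titles call the samples biological replicates. The labels do not say whether these were separate cultures, so each p-value reflects only how these samples spread, which may include technical variation.

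DNA methyltransferases place a methyl group on cytosine in CpG dinucleotides. DNMT3A and DNMT3B methylate unmarked DNA, DNMT3L has no catalytic activity of its own and stimulates them, and DNMT1, brought by UHRF1 to hemimethylated CpGs behind the replication fork, copies the pattern to the new strand. TET enzymes oxidise methylcytosine as the start of its removal, and proteins with a methyl-CpG binding domain connect the mark to repressor complexes. Pluripotent cells are known for high DNMT3B and TET1.

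CpG dinucleotides are the substrate of these enzymes, and the start regions of the genes themselves differ widely in them. RefSeq start regions on GRCh38.p14 (250 bases before to 50 after a start) were available for 9 of the 10 genes, DNMT3L being the other, in 20 windows. The windows held from 3 to 46 CpGs in 300 bases, where the median of 35116 windows of all genes was 14 and the quartiles were 4 and 28. The regions of the maintenance writer DNMT1, the de novo writer DNMT3B and the eraser TET1 (the most upstream of its 3 windows) are shown with each CG in capitals, since they run from a CpG-rich to a CpG-poor region. The motif searched was CG, which reads the same on both strands. No methylation was measured here, and these counts are a description of sequence.
DNMT1, chr19:10194904-10195203, minus strand: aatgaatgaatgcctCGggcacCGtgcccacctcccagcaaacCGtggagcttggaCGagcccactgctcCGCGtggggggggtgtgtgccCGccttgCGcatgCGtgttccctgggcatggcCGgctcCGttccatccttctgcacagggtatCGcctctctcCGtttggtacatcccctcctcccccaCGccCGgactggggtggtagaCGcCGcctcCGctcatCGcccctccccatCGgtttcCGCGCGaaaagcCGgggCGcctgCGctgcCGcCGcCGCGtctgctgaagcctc
DNMT3B, chr20:32779602-32779901, plus strand: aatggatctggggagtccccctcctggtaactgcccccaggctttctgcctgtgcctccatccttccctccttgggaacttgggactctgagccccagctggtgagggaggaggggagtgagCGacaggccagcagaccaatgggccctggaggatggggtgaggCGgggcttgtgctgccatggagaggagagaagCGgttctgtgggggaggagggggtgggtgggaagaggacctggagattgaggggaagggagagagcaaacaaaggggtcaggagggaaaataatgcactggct
TET1, chr10:68560087-68560386, plus strand: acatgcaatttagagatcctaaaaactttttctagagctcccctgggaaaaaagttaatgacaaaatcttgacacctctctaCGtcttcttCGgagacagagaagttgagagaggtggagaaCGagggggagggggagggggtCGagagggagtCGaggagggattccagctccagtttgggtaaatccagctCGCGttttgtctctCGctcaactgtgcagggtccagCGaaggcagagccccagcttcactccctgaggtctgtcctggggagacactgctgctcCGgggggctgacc
The DNMT1 window held 30 CpGs, and 22.4% of all windows held at least as many. The DNMT3B window, the only window available for that gene, held 3, a number reached by 81.8% of all windows, although its G and C content was 61.7%. Whether the windows cover every start of a gene was not checked. The count is therefore that of this window and not of every DNMT3B promoter. The TET1 window held 10 (56.4% of windows held at least as many), and its other windows held 6 and 11. UHRF1 had 36 to 46 CpGs in its 3 windows, MBD2 32 and MBD3 40. TET3 had 45 and 33 in its 2 windows, TET2 13 and 35, and the 6 windows of DNMT3A ran from 18 to 46.

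The arrays and the knockdown were checked first. The VAMP7 probe set read 137, 175 and 149 intensity units in the knockdown, against 2487, 2617 and 2741 with scrambled siRNA, a log2 fold change of -3.71 (SE 0.11, adjusted p = 0.000362 in limma). Fold changes are on the log2(intensity + 50) scale, which understates changes of dim probe sets. VAMP7 was the 1 probe set called among 54613 at an adjusted p under 0.05 (0.00183%), with 0 called higher. At an unadjusted p under 0.05 in limma there were 2256 higher (4.13%) and 1357 lower (2.48%), 6.62% together. Knockdown replicate 1 had the lowest mean correlation with the other arrays, 0.9837, where the rest lay between 0.9856 and 0.987. Of 9 measured markers of pluripotent cells, all were above the median probe set, from 80.5 for ZFP42 to 33757 for LIN28A in mean intensity. The leukocyte markers PTPRC, CD79B and LYZ averaged 16.8, 21.5 and 21.5 and CD3E 57.1, all below the median probe set, whose mean over the 6 arrays was 60.5 units. Of 6 measured neural markers 5 lay above it, among them TUBB3 (14282), MAP2 (4563) and PAX6 (1083), as did 3 of 5 fibroblast markers, among them COL1A1 (2720), and 2 of 5 germ cell markers. No marker of these lists passed the test between the groups. Of the 9 pluripotent markers 5 had a log2 fold change above 0 and 4 below, with SOX2 at 0.22 and NANOG at -0.28 (adjusted p = 0.755 in limma). NANOG and GDF3 (-0.26, named after its value was seen) were lower without overlap between the groups, and 0 of the 9 were higher without overlap. Over all 19775 genes, 1244 were lower and 1320 higher without overlap. The part of other cell types in the results was not tested. No detection calls were used. Brightness is described only in relation to the median probe set, because intensities of different probe sets cannot be ranked as amounts of RNA. The highest mean serves only as a rule to choose 1 probe set per gene. In bulk RNA, fewer cells expressing a gene and less RNA per cell cannot be told apart.

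None of the 22 probe sets passed the test (limma, adjusted p = 0.88 to 0.997), and 0 of them had an unadjusted p under 0.05, where 6.62% of all probe sets did. The log2 fold changes ran from -0.18 to 0.13, with 14 above 0 and 8 below and a median of 0.03. With each array centred on its median, or with array weights, 9 of the 22 lay above 0. Over all 54613 probe sets 53.8% lay above 0 and the median was 0.02. By the brightest probe set of each gene, 8 of the 10 genes lay above 0, with a median of 0.08, against 50.8% and 0.003 over all 19775 genes. Knockdown replicate 1 was the highest of the 6 arrays for 6 of the 10 genes and for 26.7% of all genes. Without it, 7 of the 10 genes and 10 of the 22 probe sets lay above 0. Of the 10 genes, 7 lay above 0 with median centring or array weights and 6 when a gene's probe sets were averaged. The 95% interval of the difference lay within a 1.5-fold change in either direction (0.58 on the log2 scale) for 17 of the 22 probe sets. By the brightest probe set it did so for 9 of the 10 genes, DNMT3L being the exception. The same held for 34794 of all 54613 probe sets and for 13668 of all 19775 genes. Of the 17, 3 were below the median probe set, where the offset shrinks changes.

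**Figure D1:**
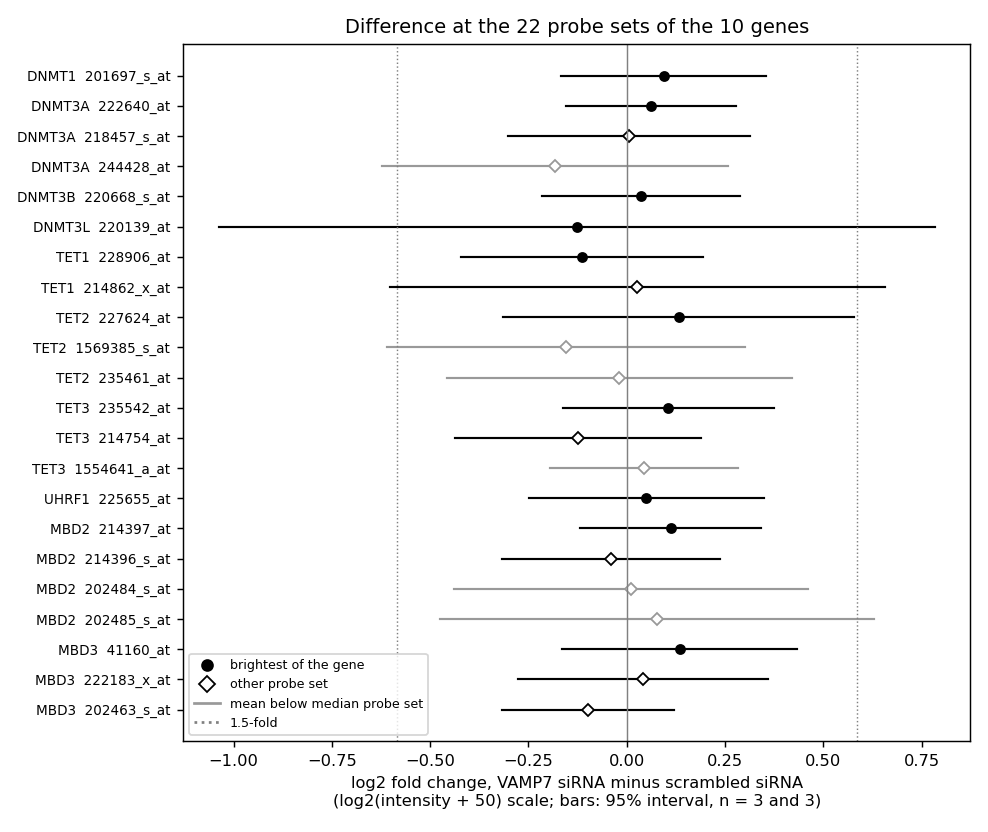
Log2 fold change, VAMP7 siRNA minus scrambled siRNA, with its 95% interval from limma for each of the 22 probe sets (x axis, log2(intensity + 50) scale); filled circles are the brightest probe set of a gene, open diamonds its others, grey probe sets whose mean lies below the median probe set, and dotted lines a 1.5-fold change. All 22 intervals include 0, and that of DNMT3L is the widest, from -1.04 to 0.78.

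DNMT3B, the de novo methyltransferase that marks pluripotent cells, was far above the median probe set and did not pass the test. Its only probe set read 9786, 8976 and 8808 in the knockdown, against 8262, 9161 and 9489 with scrambled siRNA. The groups overlapped in part, and of the 6 values the highest was knockdown replicate 1 and the lowest scrambled replicate 1. The means were 9189.9 ± 523 in the knockdown and 8971 ± 635 with scrambled siRNA (SD, n = 3 each). On the log2 scale the difference was 0.04 (SE 0.11, adjusted p = 0.973 in limma), and its 95% interval of -0.22 to 0.29 corresponds to 0.861-fold to 1.22-fold.

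DNMT3A, the other de novo enzyme, was measured by 3 probe sets. The brightest read 4913, 4961 and 4775 in the knockdown, against 4699.5, 4612 and 4719 with scrambled siRNA. All 3 knockdown arrays lay above all 3 scrambled arrays, and the spread was small, the highest value being 1.08 times the lowest. The log2 fold change of 0.06 (SE 0.09, 95% interval -0.15 to 0.28) did not pass (adjusted p = 0.931 in limma). A second probe set read 1870.4, 1592 and 1510.2 in the knockdown and 1771.5, 1723 and 1457 with scrambled siRNA, with overlapping groups and a log2 fold change of 0.005 (SE 0.13). The third, below the median probe set, read 34.1, 85.6 and 43.2 in the knockdown and 64.9, 72.5 and 60.2 with scrambled siRNA. It had the lowest of the 22 log2 fold changes, -0.18 (SE 0.19), and its highest value was also a knockdown array. The probe sets of DNMT3A therefore did not share a direction.

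DNMT3L, the catalytically inactive partner expressed in germ cells and embryonic stem cells, varied more between arrays than the other genes' brightest probe sets, with a mean of 61.6 over the 6 arrays, close to the median probe set. Its only probe set read 32.5, 98.9 and 33.5 in the knockdown, against 12.9, 91.9 and 99.8 with scrambled siRNA. In each group the values lay on both sides of the median probe set, and the highest of the 6 was 7.74 times the lowest, both in scrambled arrays. The means were 55.0 ± 38.1 in the knockdown and 68.2 ± 48.1 with scrambled siRNA (SD, n = 3 each). The log2 fold change of -0.13 (SE 0.38, 95% interval -1.04 to 0.78, adjusted p = 0.973 in limma) allowed a difference from 0.487-fold to 1.72-fold. The sign of the log2 fold change rested on single arrays. The value was above 0 when scrambled replicate 2 (0.06), scrambled replicate 3 (0.09), knockdown replicate 1 (0.02) or knockdown replicate 3 (0.009) was left out. It was -0.53 without scrambled replicate 1.

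DNMT1, the maintenance methyltransferase, was represented by 1 probe set, far above the median probe set. It read 8496, 8877 and 7849 in the knockdown, against 7794, 8549 and 7290.3 with scrambled siRNA. The groups overlapped, with scrambled replicate 2 above 2 of the 3 knockdown arrays. The log2 fold change of 0.09 (SE 0.11) had a 95% interval of -0.17 to 0.36 and did not pass (adjusted p = 0.907 in limma). UHRF1, which reads hemimethylated CpGs and recruits DNMT1, read 7112, 5627 and 5770.4 in the knockdown, against 6009, 5549 and 6234 with scrambled siRNA. Knockdown replicate 1 stood above the other 5 arrays, which spanned 5549 to 6234. The log2 fold change of UHRF1 was 0.05 (SE 0.13, adjusted p = 0.966 in limma) and -0.06 without that array.

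**Figure D2:**
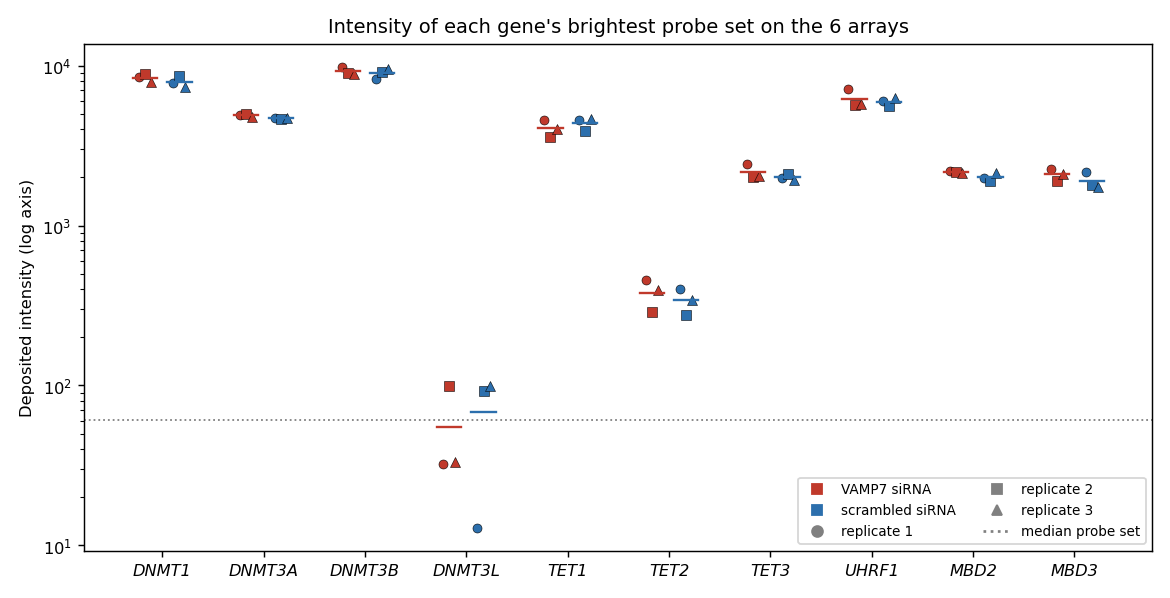
Deposited intensity (log axis) of the brightest probe set of each of the 10 genes on the 3 VAMP7 siRNA arrays (red, left) and the 3 scrambled siRNA arrays (blue, right), with marker shape for replicate number, a bar for each group mean and a dotted line at the median probe set (60.5). The groups overlap for 8 of the 10 genes, DNMT3L spans the dotted line, and heights of different genes are not comparable. DNMT3A and MBD2 are higher without overlap. Over all 19775 genes, 1320 were higher and 1244 lower without overlap.

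TET1, the methylcytosine dioxygenase most associated with pluripotent cells, was measured by 2 probe sets. The brighter read 4542, 3571 and 4014 in the knockdown, against 4550.3, 3919 and 4634 with scrambled siRNA. The groups overlapped, and replicate 2 was the lowest of its group in both. The means were 4042 ± 486 in the knockdown and 4368 ± 391 with scrambled siRNA (SD, n = 3 each), a log2 fold change of -0.11 (SE 0.13, 95% interval -0.42 to 0.20, adjusted p = 0.905 in limma). It ran from -0.20 to -0.03 when single arrays were left out, with the value nearest 0 without knockdown replicate 2. The other TET1 probe set, of a type that can also bind related transcripts, read 331, 349 and 347 in the knockdown, against 557, 259 and 253 with scrambled siRNA. Here scrambled replicate 1 lay far above the other 5 arrays and the other scrambled arrays below all 3 knockdown arrays, which gave a log2 fold change of 0.03 (SE 0.27).

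TET2, the TET enzyme that lacks a CXXC DNA-binding domain of its own, read 457, 288 and 396 in the knockdown, against 400.4, 277 and 344 with scrambled siRNA, on its brightest probe set. Replicate 2 was the lowest in each group and the groups overlapped, with a log2 fold change of 0.13 (SE 0.19, 95% interval -0.31 to 0.58, adjusted p = 0.927 in limma). This value moved between 0.003 without knockdown replicate 1 and 0.30 without knockdown replicate 2. The other TET2 probe sets were below the median probe set on every array, at 2.46 to 27.9 in the knockdown and 0.806 to 35.2 with scrambled siRNA, and their log2 fold changes were -0.15 (SE 0.19) and -0.02 (SE 0.19). TET3, a TET enzyme with a CXXC domain known for oxidising the paternal genome of the zygote, read 2427, 2009 and 2053 in the knockdown, against 1989, 2088 and 1925 with scrambled siRNA, on its brightest probe set. Only knockdown replicate 1 lay above all 3 scrambled arrays, and the log2 fold change was 0.11 (SE 0.11, adjusted p = 0.899 in limma). A dimmer TET3 probe set read 126, 116 and 137 in the knockdown and 172, 139 and 118 with scrambled siRNA, a log2 fold change of -0.12 (SE 0.13). The third read 5.06 to 13.0 in the knockdown and 5.77 to 7.65 with scrambled siRNA, with a log2 fold change of 0.04 (SE 0.10).

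MBD2 and MBD3 are alternative subunits of the NuRD complex, a histone deacetylase and chromatin remodelling complex. MBD2 binds methylated CpGs, while mammalian MBD3 has little affinity for them. The brightest MBD2 probe set read 2189, 2154 and 2133 in the knockdown, against 1969, 1892 and 2128 with scrambled siRNA. The groups did not overlap, but the lowest knockdown array and the highest scrambled array were almost level. The log2 fold change of 0.11 (SE 0.10, 95% interval -0.12 to 0.34) did not pass (adjusted p = 0.88 in limma), although it had the smallest adjusted p of the 22. A second MBD2 probe set read 1029.6, 907 and 1055 in the knockdown and 1055, 921 and 1106 with scrambled siRNA, with a log2 fold change of -0.04 (SE 0.12). The other MBD2 probe sets averaged 51.8 and 27.0 in the knockdown and 50.6 and 24.1 with scrambled siRNA, with log2 fold changes of 0.01 (SE 0.19) and 0.08 (SE 0.23).

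MBD3 gave opposite signs on its 3 probe sets. The brightest read 2261, 1892 and 2101 in the knockdown, against 2148, 1796 and 1749 with scrambled siRNA, and its log2 fold change of 0.13 (SE 0.13, 95% interval -0.16 to 0.43, adjusted p = 0.884 in limma) was the highest of the 22. The groups overlapped. The dimmest of the 3 read 458, 449 and 466 in the knockdown, against 511, 476 and 494 with scrambled siRNA, and all 3 knockdown arrays lay below all 3 scrambled arrays, with a log2 fold change of -0.10 (SE 0.09, adjusted p = 0.884 in limma). The third read 755, 577 and 563 in the knockdown and 639, 577 and 607 with scrambled siRNA, a log2 fold change of 0.04 (SE 0.13) with knockdown replicate 1 as the highest array. Together with DNMT3A and MBD2, this made 3 of 22 member probe sets (13.6%) whose groups did not overlap, 2 higher and 1 lower. Over all 54613 probe sets the share was 12.4%, 7.28% higher and 5.15% lower, so the members' share was near the background.

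**Figure D3:**
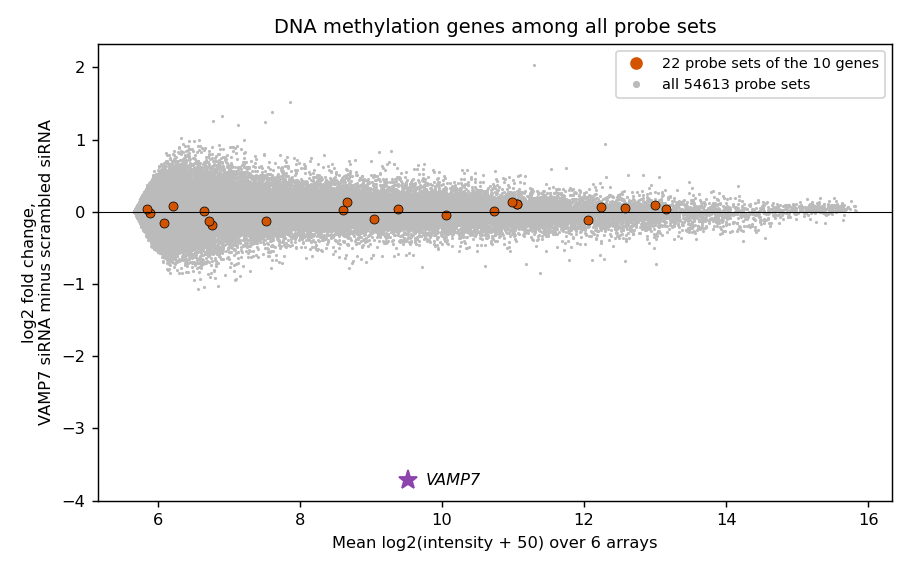
Log2 fold change, VAMP7 siRNA minus scrambled siRNA (y axis), against the mean log2(intensity + 50) over the 6 arrays (x axis) for all 54613 probe sets (grey), the 22 probe sets of the DNA methylation genes (orange) and VAMP7 (purple star). The orange points lie between -0.18 and 0.13, inside the cloud of all probe sets, while VAMP7 lies at -3.71.

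The balance between de novo writer and eraser was followed as the difference between 2 genes on the same array, on the log2(intensity + 50) scale. Its level has no meaning across probe sets, but a change in it shows that the genes changed unequally on that scale. The offset shrinks changes of the dim DNMT3L more than those of DNMT3B and TET1. A balance with DNMT3L can therefore shift where the fold changes in intensity are equal. DNMT3B minus TET1 was 1.10, 1.32 and 1.12 in the knockdown, against 0.85, 1.21 and 1.03 with scrambled siRNA. The groups overlapped, with means of 1.18 ± 0.12 in the knockdown and 1.03 ± 0.18 with scrambled siRNA (SD, n = 3 each). The shift was 0.15 (exact two-sided permutation p = 0.4, where 0.1 is the smallest that 3 arrays against 3 can give). It was above 0 under each of the 10 alternative settings that could change it, from 0.06 without scrambled replicate 1 to 0.24 without scrambled replicate 2. These settings reuse the same arrays, so their shared sign is no independent support for a shift.

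The balances with DNMT3L spread widely between arrays. DNMT3L minus TET1 was -5.80, -4.60 and -5.61 in the knockdown, against -6.19, -4.81 and -4.97 with scrambled siRNA, a shift of -0.01 (exact permutation p = 1). It was -0.45 without scrambled replicate 1 and 0.24 without scrambled replicate 2, and above 0 without scrambled replicate 3 (0.16), knockdown replicate 1 (0.22) or knockdown replicate 3 (0.12). DNMT3B minus DNMT3L was 6.90, 5.92 and 6.73 in the knockdown, against 7.05, 6.02 and 5.99 with scrambled siRNA, a shift of 0.16 (exact permutation p = 1). It was 0.51 without scrambled replicate 1 and between -0.03 and -0.004 without knockdown replicate 1, scrambled replicate 3 or scrambled replicate 2. Adjusted over the 3 balances, each p was 1.

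**Figure D4:**
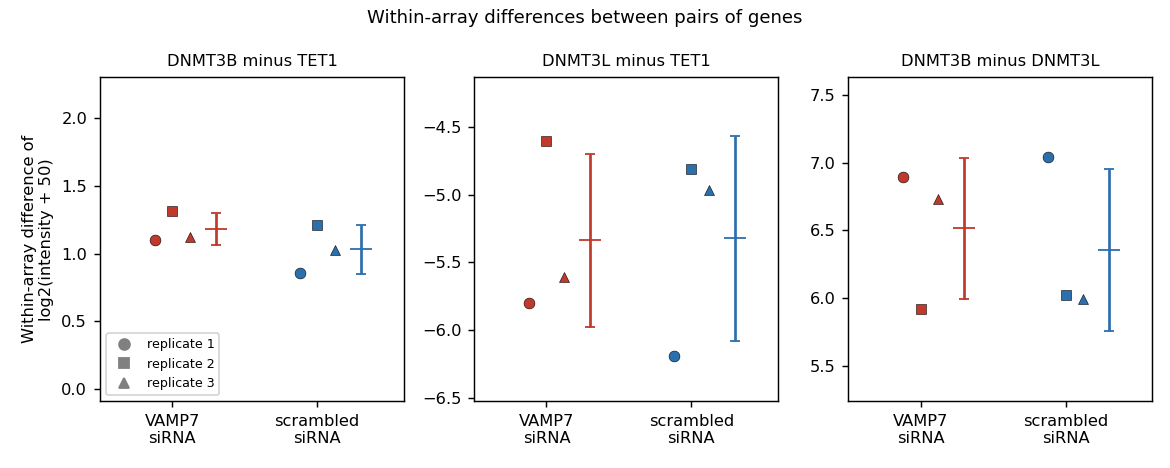
Within-array difference of log2(intensity + 50) for DNMT3B minus TET1, DNMT3L minus TET1 and DNMT3B minus DNMT3L (y axes of equal span, different origin) on the VAMP7 siRNA arrays (red, left) and scrambled siRNA arrays (blue, right), with marker shape for replicate number and mean ± SD beside the points (n = 3 each). The groups overlap in all 3 panels, and both panels with DNMT3L spread more widely than that without it.

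As a description over the 6 arrays, the genes of at least median brightness whose pattern was most like each of the 3 were sought by Pearson's r among 9477 other genes (9478 for DNMT3L, itself below the median gene). For DNMT3B they were HLA-G, EIF3B and DUSP6 (0.994, 0.994 and 0.990), for TET1 ADCY9, TUBGCP4 and WWC3 (0.991, 0.987 and 0.980), and for DNMT3L GRWD1, DERA and VASH2 (0.990, 0.981 and 0.976). The 99th percentile of r over the genes searched was 0.923 for DNMT3B, 0.915 for TET1 and 0.864 for DNMT3L, and the named genes are the highest of all those searched, over 6 arrays.

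Genes that work with the 10 were taken by list and by the brightest probe set of each gene, beside a median log2 fold change of 0.003 over all 19775 genes. None of the 83 measured genes in the lists that follow passed the test in either direction, where 0.00183% of all probe sets did. At an unadjusted p under 0.05 in limma 1 was higher (MEG3) and 3 were lower (GADD45G, MAEL and KCNQ1OT1), where 3.29% of all genes were higher and 2.63% lower. Of the 38 genes that the naming rule took from these lists, 21 had several probe sets above the median, and in 9 of them those probe sets had both signs (MBD1, MBD4, HELLS, TDG, SMUG1, CXXC5, KMT2A, PEG10 and MEG3). Of 7 further methyl-CpG readers, 3 lay above 0 and 4 below (median -0.03). MBD1 was at 0.12, the glycosylase MBD4 at -0.11 and ZBTB33, the reader Kaiso, at 0.14, with MBD6 at 0.35 and ZBTB38 at -0.29 the members of smallest p in each direction. Of 12 maintenance and targeting partners, 8 lay above 0 and 4 below (median 0.03). UHRF2, a relative of UHRF1, was at 0.008, the remodeller HELLS at -0.13 and USP7, a deubiquitinase that binds DNMT1 and UHRF1, at 0.14. EHMT2, a histone H3 lysine methyltransferase, was at 0.36 (adjusted p = 0.771 in limma) and the replication clamp PCNA at -0.15. The dimmer EHMT2 probe sets gave 0.32 and, below the median probe set, -0.38, each without overlap between the groups, like the brightest.

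Of 9 genes linked to base excision and demethylation, 3 lay above 0 and 6 below (median -0.04). TDG, the glycosylase that removes oxidised methylcytosine, was at -0.07, SMUG1 at 0.14 and GADD45A at -0.07. GADD45G averaged 62.4 ± 15.8 in the knockdown and 113 ± 25.9 with scrambled siRNA (SD, n = 3 each), without overlap, and its log2 fold change of -0.53 (SE 0.17) did not pass (adjusted p = 0.679 in limma). OGT, the O-GlcNAc transferase that binds TET proteins, was at 0.27. Of the 11 NuRD subunits measured, 7 lay above 0 and 4 below (median 0.05), with the remodeller CHD4 at 0.07, the deacetylase HDAC1 at -0.12, MTA2 at -0.27 and GATAD2B at 0.29. Methyl donor and cofactor genes divided 5 and 5 (median -0.004), with AHCY at -0.13, MAT2A at 0.02, MAT2B at -0.14, MTRR at 0.09 and SHMT1, below the median probe set, at -0.40. Of 8 CXXC and methylation-sensitive binding proteins 6 lay above 0 (median 0.09), with CXXC1 at 0.12, CTCF at 0.11, CXXC5 at 0.05, KDM2A at 0.21 and KMT2A at -0.09.

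Genes whose expression is known to depend on DNA methylation were read beside the machinery. All 12 germline genes with promoters methylated in somatic cells were below the median probe set, and 7 lay above 0 and 5 below (median 0.02). Among them DAZL was at -0.25, SYCP3 at -0.07, DPEP3 at 0.24 and MAEL at -0.40 (unadjusted p = 0.0485, adjusted p = 0.753 in limma). Of 14 imprinted genes, 4 lay above 0 and 10 below (median -0.07). PEG3, MEST and PEG10 were at -0.06, -0.14 and -0.03, while DLK1, GRB10 and NDN were at 0.04, 0.10 and 0.17, NDN without overlap between the groups (adjusted p = 0.807 in limma). These 6 were all above the median probe set, and DLK1, GRB10 and NDN were named after their values were seen. Of the 14, 1 was higher without overlap (NDN) and 2 were lower without overlap, CDKN1C (-0.13) and KCNQ1OT1. Over all 19775 genes, 1320 were higher and 1244 lower without overlap. CDKN1C was also named after its value was seen. MEG3 was at 0.45 on its brightest probe set (adjusted p = 0.752 in limma), where its next brightest gave -0.08. KCNQ1OT1, an antisense RNA of the KCNQ1 imprinted region, had probe sets of opposite sign, and the reason was not tested. The brightest (mean 32.98) gave -0.67 (SE 0.13, adjusted p = 0.557 in limma) and the next (mean 32.96) gave 0.66 (SE 0.21). Both were without overlap between the groups and both were below the median probe set. Its dimmer probe sets gave -0.14, -0.28 and 0.03.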

How the data were processed

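The authors deposited linear intensities for 54675 probe sets, scaled to 1 trimmed mean per array, as the values themselves show. The submitters' processing notes name RMA, which gives log2 values and does not describe these intensities; the background correction is not given in the sources used here. After 62 array controls were left out, intensities plus an offset of 50 were put on the log2 scale and knockdown was compared with scrambled siRNA per probe set in limma 3.58.1 (R 4.3.3, lmFit and eBayes) over the 54613 others, with Benjamini-Hochberg adjustment over all of them. Array medians ran from 58.7 to 67.4, and with 3 arrays a group their number sets the precision. Probe sets took genes from the platform annotation where it named 1 gene (41091 probe sets, 41037 matched by identifier to the RefSeq table of GRCh38.p14), and the probe set of highest mean stood for its gene. All 10 members are given with every probe set. Each further list is given by its first 3 measured genes, any called gene and that of smallest p in each direction. The lists of cell type markers are not given in full by this rule. The members and lists were chosen with earlier results of these data known. The code was tested on simulated data. Same-numbered replicates were checked for pairing: their deviations from the group means correlated at -0.002, 0.04 and -0.03, so the replicate number was not used as a block. Alternatives were other offsets, a filter on dim probe sets, other scalings, eBayes options, array weights, the replicate block, gene summaries and the omission of each array.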

Additional observations from a re-analysis of the deposited data

How the results depend on the processing

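VAMP7 stayed below 0 and past the threshold in all 17 alternatives (-3.96 to -3.42; adjusted p = 1.28e-06 to 0.0295 in limma, the last with the replicate number as a block, which left every log2 fold change as it was and called 1 probe set). No member passed in any of 170 values over 17 alternatives. The dim filter, both eBayes options, the block and 1 probe set per gene cannot change a member's estimate; of the other 120 values, 109 kept their sign. The 11 reversals were DNMT3B with median centring (-0.0066), without scrambled replicate 1 (-0.022) and without knockdown replicate 1 (-0.010); UHRF1 with array weights (-0.0010) and without knockdown replicate 1 (-0.056); DNMT3A and TET2 with the mean of their probe sets (-0.039 and -0.014); and DNMT3L without 1 of 4 arrays (0.0090 to 0.094; -0.53 to 0.094 over all 6 omissions). DNMT3B ran from -0.022 to 0.077 and UHRF1 from -0.056 to 0.11 over the omissions. The count of 14 member probe sets above 0 was 9 with median centring or array weights, 8 of 10 genes by the brightest probe set, 6 of 10 by the mean of probe sets, and 10 to 15 over the omissions. One probe set or gene was called in each alternative except the mean of probe sets, which called 2 genes, VAMP7 and C19orf73 (named after its value was seen). DNMT3L minus TET1 was 0.013 at an offset of 100 and ran from -0.45 to 0.24 over the omissions; DNMT3B minus DNMT3L ran from -0.028 to 0.51. The cause of these changes was not tested, beyond the fewer arrays used. Omitting an array gives no smaller exact p than 0.1 for a balance. Without detection calls, signal over background could not be given.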
